A study of Mus musculus with 18 samples.

Results

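The developmental pluripotency associated (Dppa) genes described here are Dppa2, Dppa3, Dppa4 and Dppa5a, chosen by their Ensembl identifiers: 4 of the 51826 features counted in this series. The series measured ribosome footprints, that is, stretches of mRNA covered by a ribosome and so left uncut by nuclease, in the mouse embryonic stem cell line E14. Its groups were wild type cells (WT) and knockout lines (KO) for Quaking or for Sam68 on the same E14 background, each at day 0 as stem cells and at day 10 of embryoid body differentiation, with 3 libraries per group and 18 in all. All cells were treated with cycloheximide, which stalls ribosomes on mRNA, at 100 µg/mL for 15 minutes before lysis. The labels do not say how many clones stand behind each knockout line, and they give the cell type as embryonic stem cells also at day 10, when embryoid bodies are aggregates of differentiating cells of several kinds.

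Dppa2 and Dppa4 are SAP-domain proteins that bind chromatin as a pair; they are known for keeping developmental promoters in stem cells free of DNA methylation and for activating genes of the early cleavage embryo. Dppa3, also called Stella or PGC7, is a maternal and germline protein that protects DNA from changes in methylation and holds back Uhrf1, the partner of the maintenance DNA methyltransferase. Dppa5a, also called Esg1, is a KH-domain RNA-binding protein of pluripotent and germ cells; KH domains are also the RNA-binding fold of Quaking and Sam68. All of these genes are used as markers of pluripotent cells.

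By RefSeq's positions on GRCm38.p6, the build the labels name as GRCm38, Dppa4 (ENSMUSG00000058550.14) lies at chr16:48283735-48294292 and Dppa2 (ENSMUSG00000072419.4) at chr16:48310274-48319513, with 15981 bp and no annotated gene between them. Dppa3 (ENSMUSG00000046323.8) lies at chr6:122626424-122630271, between the protein-coding genes Gdf3 (16336 bp away) and Nanog (77217 bp away), both also known from pluripotent cells. Dppa5a (ENSMUSG00000060461.5) lies at chr9:78367052-78368199, 8703 bp from Ooep, which encodes an oocyte protein of the same KH-domain family. No annotated gene overlaps any of the 4. RefSeq lists pseudogenes named Dppa5b and Dppa5c on chromosome 9 and Dppa3-ps on chromosome X. How the authors counted reads that match several places is not given in the sources used here, so the counts of Dppa5a and Dppa3 could include or lack reads shared with those copies.

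Total counts were 1373377 to 10646768 per library at day 0 and 988210 to 7885195 at day 10. In 3 day 10 libraries (WT replicate 3 and Sam68 KO replicates 2 and 3) the 10 largest features took 60.2% to 70.4% of the counts, against at most 30.2% in the others. The descriptions place the libraries in 3 mixes: WT and Quaking KO at day 0 in the first, Sam68 KO at day 0 with WT at day 10 in the second, and both knockouts at day 10 in the third. Only Quaking KO against WT at day 0 and Sam68 KO against Quaking KO at day 10 were therefore compared within a mix; in the other comparisons mix and group cannot be told apart unless each line is given 1 effect for both days. The labels' cell types and knockouts were not checked with other marker genes here, since the reference tables used pair no Ensembl identifier with a symbol.

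Values are CPM, counts scaled to a fixed library size, with library sizes adjusted by TMM, which corrects for a few features taking much of a library. A footprint count mixes mRNA amount with translation, and in such bulk libraries fewer cells of a type and less RNA per cell cannot be told apart. Levels of different genes were not compared, since no coding lengths were used. Differences were tested with edgeR's quasi-likelihood test over 13701 genes in 1 fit of all 18 libraries, with Benjamini-Hochberg adjustment over all of them and a threshold of 0.05. Of the 4 Dppa genes 3 passed the filter on low counts; Dppa3 did not and has no result in that fit.

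In WT stem cells all 4 genes were detected in every library. Dppa2 measured 6.1, 6.15 and 4.42 CPM in WT replicates 1 to 3. It measured 6.56, 6.32 and 4.37 CPM in Quaking KO and 3.46, 5.22 and 4.88 CPM in Sam68 KO stem cells. These 3 groups overlapped, with means of 5.56 ± 0.981, 5.75 ± 1.2 and 4.52 ± 0.931 CPM (SD, n = 3 each).

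Dppa4, the partner of Dppa2, measured 18, 18.4 and 20.6 CPM in WT stem cells. It measured 26.2, 33.3 and 16.9 CPM in Quaking KO and 19.9, 26.5 and 25.9 CPM in Sam68 KO stem cells. Both knockout groups overlapped WT, and Quaking KO was the most variable, with 25.5 ± 8.25 CPM against 19 ± 1.42 in WT and 24.1 ± 3.63 in Sam68 KO (SD, n = 3 each).

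Dppa5a took 0.0743% to 0.103% of all counts in the day 0 libraries. It measured 668, 610 and 616 CPM in WT, 691, 792 and 640 CPM in Quaking KO, and 801, 830 and 732 CPM in Sam68 KO stem cells. The lowest Sam68 KO library lay above the highest WT library, while Quaking KO overlapped both. How many of all genes separate Sam68 KO from WT in this way was not computed, and these groups also differ in mix. The group means were 631 ± 32, 708 ± 77.7 and 787 ± 50.1 CPM (SD, n = 3 each), and none of these differences passed the test across genes, given next.

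None of the 3 tested Dppa genes passed the test between lines at day 0. For Quaking KO against WT, 0 of 3 were called by edgeR (0 at an unadjusted p below 0.05, 0 by DESeq2), where 0.365% of all genes tested were called. For Sam68 KO against WT it was again 0 of 3 (0 unadjusted, 0 by DESeq2) against 1.26% of all genes. Sam68 KO against Quaking KO also gave 0 of 3 (0 unadjusted, 0 by DESeq2), against 3.31%. The 95% intervals of the log2 fold changes show the range around each fitted value, per gene and without adjustment over genes. For Sam68 KO against WT they cover a difference in mix as well as in line, so they do not bound the effect of the line. For Dppa5a they ran from -0.52 to 0.85 in Quaking KO and from -0.36 to 1 in Sam68 KO, each against WT. For Dppa4 they ran from -0.17 to 0.96 and from -0.2 to 0.88, and for Dppa2 from -0.81 to 0.91 and from -1.1 to 0.53. These comparisons share the WT or the Quaking KO libraries. In a fit with the mix as a block, which gives each line 1 effect for both days, Dppa4 in Sam68 KO turned to -5.51 against WT (edgeR adjusted p = 0.0112) and to -5.91 against Quaking KO (edgeR adjusted p = 0.00143); there the 0 counts of Sam68 KO at day 10 enter the day 0 comparison.

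Dppa3 had few footprints even in stem cells. Its counts were 21, 10 and 33 in WT replicates 1 to 3, equal to 3.05, 1.4 and 2.56 CPM. Quaking KO libraries held 0, 1 and 5 counts (0, 0.574 and 1.56 CPM) and Sam68 KO libraries 8, 13 and 6 (1.39, 1.3 and 0.886 CPM). After TMM the highest Sam68 KO library (1.39) lay just under the lowest WT library (1.4), and Quaking KO overlapped WT through its replicate 3. Per total count those Sam68 KO and WT libraries stood in the reverse order, at 8 of 4629369 against 10 of 5877822 counts. On that scale Sam68 KO overlapped WT. Summed over libraries, WT exceeded Quaking KO by a ratio of 3.29 (95% counting interval 1.43 to 9.29) and Sam68 KO by 1.98 (1.25 to 3.23); these intervals cover counting error only, not the spread between libraries. When genes with low counts were kept, which brings Dppa3 into edgeR's fit, the log2 fold changes were -1.61 (adjusted p = 1) and -1 (adjusted p = 0.839), so neither passed. The Quaking KO value rested on single libraries: it was -3.37 (adjusted p = 0.682) without Quaking KO replicate 3 and -1.03 (adjusted p = 1) without replicate 1. The Quaking KO libraries were the shallowest of day 0, and 3 counts corresponded to 0.895 to 1.72 CPM there.

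**Figure D1:**
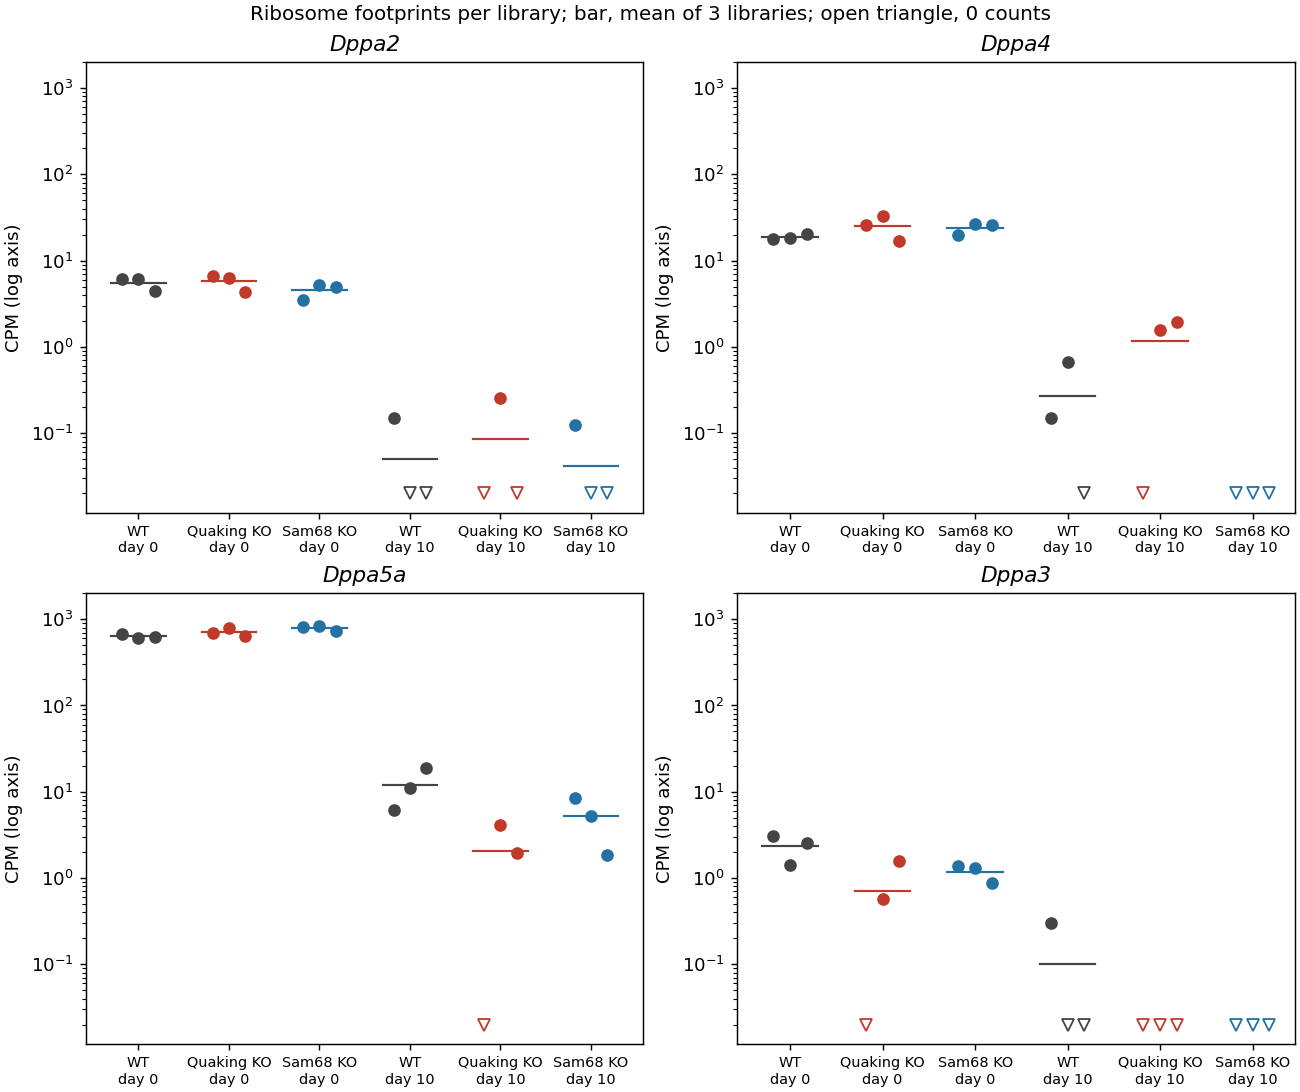
CPM of Dppa2, Dppa4, Dppa5a and Dppa3 (log axis, 1 panel each) in each of the 18 libraries by group; filled points are libraries, bars are means of 3 libraries and open triangles at the bottom are libraries with 0 counts. Every group mean is higher at day 0 than at day 10 of the same line, and Dppa4 at day 10 has counts in 2 Quaking KO libraries and 0 in all Sam68 KO libraries.

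A ratio of 2 genes within a library does not depend on how libraries are scaled. The log2 ratio of Dppa2 to Dppa4 counts was -1.55, -1.57 and -2.21 in WT replicates 1 to 3, and -1.98, -2.35 and -1.91 in Quaking KO. In Sam68 KO it was -2.49, -2.33 and -2.39, below all WT libraries; Quaking KO overlapped both other lines. The means were -1.78 ± 0.38, -2.08 ± 0.24 and -2.41 ± 0.08 (SD, n = 3 each). No test was made of this ratio, and it shows only unequal counts of the pair, not which of them differed. At day 10 no library held the 20 counts over both genes that were set as a minimum.

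**Figure D2:**
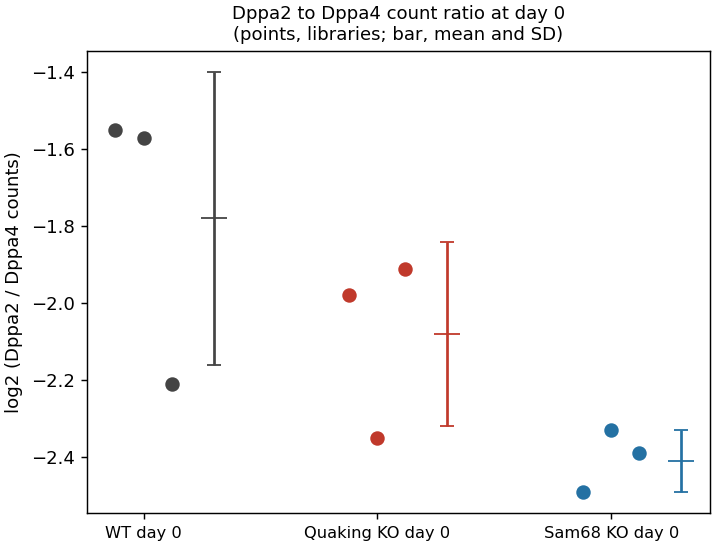
Log2 ratio of Dppa2 to Dppa4 counts at day 0; points are libraries and the bar beside them is the mean with its SD. WT libraries lie between -2.21 and -1.55 and Sam68 KO libraries between -2.49 and -2.33.

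After 10 days of embryoid body differentiation nearly all Dppa footprints were gone in each line. In WT embryoid bodies Dppa2 had 1, 0 and 0 counts in replicates 1 to 3, against 42, 44 and 57 at day 0. The summed WT level was higher at day 0 by a ratio of 61.7 (95% counting interval 10.9 to 2450; edgeR adjusted p = 5.78e-07). Dppa4 had 1, 3 and 0 counts, against 124, 132 and 266 at day 0, and fell by 5.68 on the log2 scale (SE 0.51, edgeR adjusted p = 1.47e-09). Dppa5a kept 41, 50 and 8 counts, or 6.15, 11.1 and 18.8 CPM, against 610 to 668 CPM at day 0. It fell by 6.04 (SE 0.43, edgeR adjusted p = 2.05e-08). No day 10 library of WT reached the day 0 range of any of the 4 genes. The share of all genes for which this held was not computed.

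Dppa3 had 2, 0 and 0 counts in WT embryoid bodies, a ratio of 13.8 in favour of day 0 (95% counting interval 3.67 to 116). With low-count genes kept, its log2 fold change was -3.78 (edgeR adjusted p = 0.00193). In Quaking KO and Sam68 KO embryoid bodies it had 0 counts in all 6 libraries. With a floor of 3 counts over the group standing in for 0, day 0 was at least 2.05-fold higher in Quaking KO (edgeR adjusted p = 0.0306 with low-count genes kept) and at least 4.45-fold higher in Sam68 KO (0.00174). With the counting error of both days, the 95% bounds were 1.21-fold and 3.38-fold. Dppa3 passed the filter when certain single libraries were left out, and these calls did not hold in all such fits. For Quaking KO the adjusted p was 0.256 without its day 0 replicate 3, which held 5 of its 6 counts, 0.0905 without day 10 replicate 2 and 0.0823 without day 10 replicate 3. For Sam68 KO it was 0.0574 without day 10 replicate 1. For WT the log2 fold change was -6.55 without day 10 replicate 1, which held both day 10 counts, and -2.98 without day 10 replicate 2, both called (adjusted p = 0.0106 and 0.0407).

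Of all genes tested, 30.1% were called lower at day 10 in WT, 29.4% in Quaking KO and 30.5% in Sam68 KO, and Dppa2, Dppa4 and Dppa5a were among them in all 3 lines. Dppa2 and Dppa4 could pass the filter on low counts only through day 0, so their number among the calls carries no weight of its own. The sizes are a description: in WT, 0.628% of the genes tested had a lower log2 fold change than Dppa5a, 0.774% a lower one than Dppa4 and 0.781% a lower one than Dppa2. The median over all genes tested was 0.1.

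**Figure D3:**
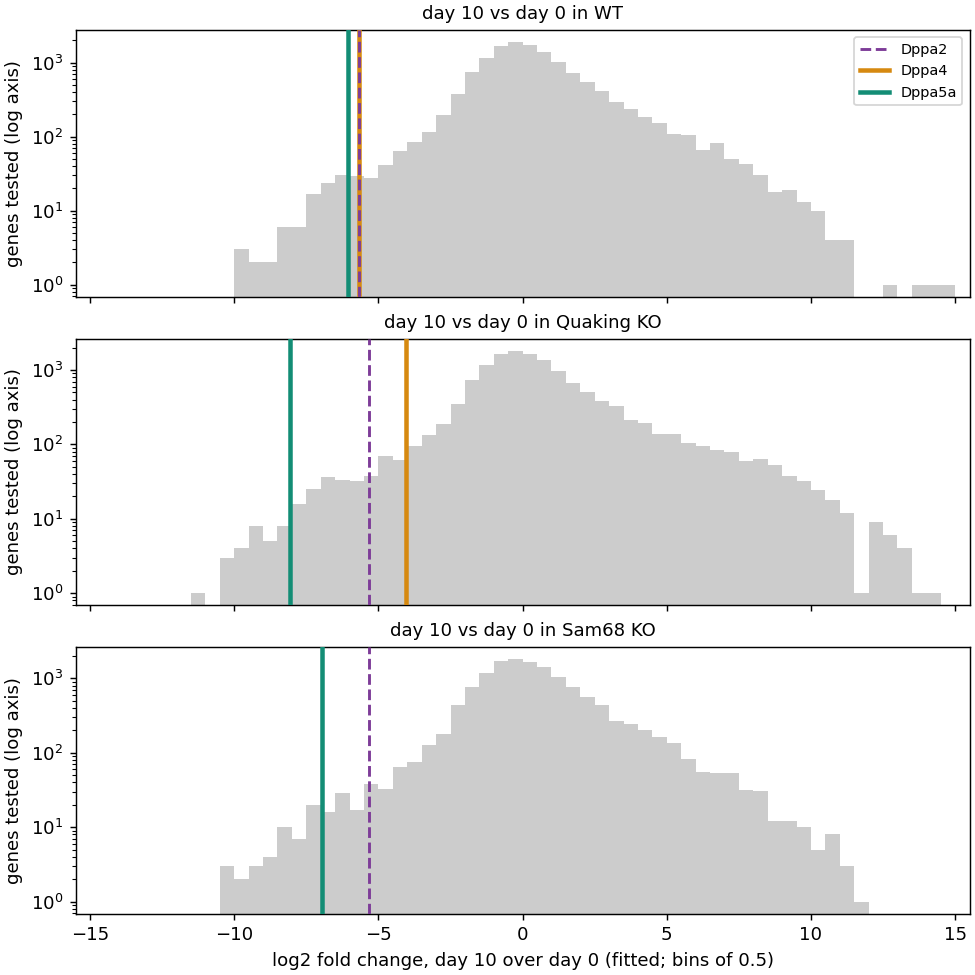
Histogram of fitted log2 fold changes of day 10 over day 0 for all 13701 genes tested (bins of 0.5, log axis for the number of genes), 1 panel per line, with lines at Dppa2 (dashed), Dppa4 and Dppa5a. The marked genes lie in the lower tail, at -5.66, -5.68 and -6.04 in WT; Dppa4 is not marked in Sam68 KO, where it had 0 counts at day 10.

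In Quaking KO embryoid bodies Dppa2 had 0, 1 and 0 counts, and the day 0 level was higher by a ratio of 48.2 (95% counting interval 8.25 to 1950; edgeR adjusted p = 2.09e-06). Dppa4 had 0, 6 and 7 counts, equal to 0, 1.55 and 1.96 CPM, against 16.9 to 33.3 CPM at day 0; it fell by 4.05 on the log2 scale (SE 0.41, edgeR adjusted p = 1.17e-08). Dppa5a had 0, 16 and 7 counts, equal to 0, 4.13 and 1.96 CPM, and fell by 8.08 (SE 0.48, edgeR adjusted p = 2.84e-09). Replicate 1 was the shallowest library of the series, with 988210 counts, and held no count of any Dppa gene; 3 counts there corresponded to 2.78 CPM, above the Dppa4 level of either other replicate.

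In Sam68 KO embryoid bodies Dppa2 had 1, 0 and 0 counts, with a ratio of 51.9 in favour of day 0 (95% counting interval 9.11 to 2070; edgeR adjusted p = 1.88e-06). Dppa4 had 0 counts in all 3 libraries, which together held 14039126 counts, against 115, 264 and 175 at day 0. Set against that same floor, its day 0 level was at least 91.3-fold higher (edgeR adjusted p = 1.17e-10), and the 95% bound with the counting error of both days was 74-fold. Dppa5a had 68, 11 and 2 counts, equal to 8.55, 5.26 and 1.85 CPM, and fell by 6.95 (SE 0.44, edgeR adjusted p = 5.02e-09).

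Between lines at day 10 the main test called Dppa4 only between the knockouts. Quaking KO had 13 Dppa4 counts over its libraries and Sam68 KO 0, which makes Sam68 KO at least 5.66-fold lower on the same floor (edgeR adjusted p = 0.00143). With the counting error of both groups, the 95% bound was 3.98-fold. This was the only 1 of the 3 tested genes called between the knockouts, where 10.6% of all genes were called lower in Sam68 KO. Dppa4 passed the filter on low counts only through day 0 libraries, so this number carries no weight of its own. In a fit of only the groups compared no Dppa gene was tested, so the call needs the other libraries of the fit. Both groups lie in the third mix. The groups still overlap, because Quaking KO replicate 1 had 0 counts, and the mean of Quaking KO was 1.17 ± 1.03 CPM (SD, n = 3). The call was lost when all libraries were thinned to 988210 counts (adjusted p = 0.479); leaving out single libraries gave adjusted p-values of 0.000539 to 0.0476.

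For Dppa4 the WT mean lay between those of the knockouts, at 0.272 ± 0.349 CPM (SD, n = 3) from 4 counts. All groups overlapped through libraries with 0 counts. Against WT, Quaking KO was higher by 2.03 on the log2 scale (SE 0.74, edgeR adjusted p = 0.0506), which did not pass. The adjusted p was 0.0428 with RLE scaling, 0.0473 with upper quartile scaling, 0.0219 after leaving out Quaking KO day 10 replicate 1 and 0.0335 after leaving out WT day 10 replicate 2. It stayed above 0.05 in the other fits that tested it. Among them were DESeq2 (0.0508), no filter (0.064), the replicate block (0.0672) and thinning (0.448). Others left out WT day 10 replicate 1 (0.317, with a log2 fold change of 1.27) or Quaking KO day 10 replicate 3 (0.206). A fit of only the groups compared did not test Dppa4, which passed the filter only through day 0. With the mix as a block the value was 0.39 (adjusted p = 0.927). Sam68 KO against WT had 0 counts against 4 (edgeR adjusted p = 0.612), too few to order the groups: the 95% counting interval of Sam68 KO over WT reaches 1.58. These comparisons share the WT libraries with each other and the knockout libraries with the comparison before.

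For Dppa5a the lowest mean was that of Quaking KO, though its difference from Sam68 KO did not pass, as given below. That mean includes the 0 of Quaking KO replicate 1, where 3 counts corresponded to 2.78 CPM. At day 10 the means were 12 ± 6.38 CPM in WT, 5.22 ± 3.35 in Sam68 KO and 2.03 ± 2.07 in Quaking KO (SD, n = 3 each). Every WT library lay above every Quaking KO library, while Sam68 KO overlapped both. How many of all genes separate WT from Quaking KO in this way was not computed, and these groups also differ in mix. Quaking KO was lower than WT by a log2 fold change of -1.87 (SE 0.52, edgeR adjusted p = 0.0174), the 1 Dppa gene called among 3 tested, where 12.8% of all genes were called lower. The call was lost without WT day 10 replicate 2 (adjusted p = 0.0837), without Quaking KO day 10 replicate 3 (0.0803), on thinning (0.518) and in a fit of the 6 libraries alone (0.063). With the mix as a block and 1 effect per line for both days, the value was 0.16 (adjusted p = 1). WT replicate 3, the highest at 18.8 CPM, rested on 8 counts and its level depended on TMM scaling: on CPM from unadjusted total counts, Dppa5a measured 6.29, 11.3 and 6.8 in WT and 0, 4.88 and 2.22 in Quaking KO, still without overlap, and with libraries scaled this way the adjusted p was 0.0553.

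Sam68 KO exceeded Quaking KO in Dppa5a by 1.29 on the log2 scale (SE 0.52, edgeR adjusted p = 0.0955), which did not pass. DESeq2 called it (adjusted p = 0.0255), as did edgeR with no filter on low counts (0.00179), without the 3 libraries dominated by few features (0.0165), and after leaving out either Quaking KO day 10 replicate 2 (0.0329) or Sam68 KO day 10 replicate 3 (0.0341). Sam68 KO against WT at day 10 gave 0 of 3 genes called by edgeR (1 at an unadjusted p below 0.05, Dppa4, and 0 by DESeq2), where 0.175% of all genes were called. For Dppa5a that difference was -0.59 with a 95% interval from -1.55 to 0.38. Dppa2, with 1 count per group, could not be ordered between lines at day 10, and neither could Dppa3, with 2 counts in WT and 0 in both knockouts.

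**Figure D4:**
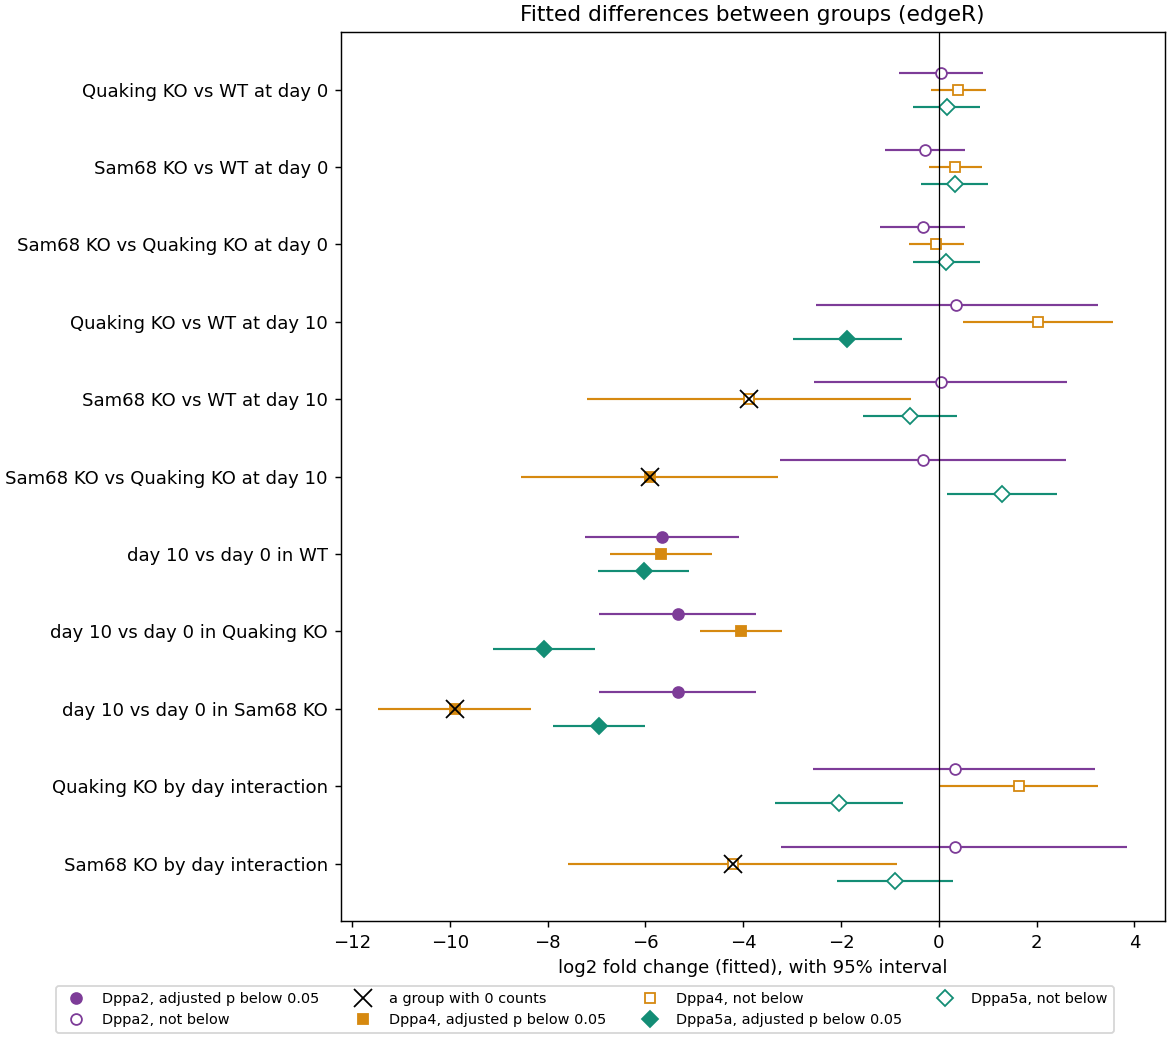
Fitted log2 fold changes with 95% intervals for Dppa2, Dppa4 and Dppa5a in the 11 comparisons; filled symbols have an edgeR adjusted p below 0.05. Black crosses mark values with 0 counts in a group, whose fitted size and interval depend on edgeR's prior count, so these intervals are not bounds. The day 0 comparisons sit near 0 and the time courses between -4.05 and -8.08 for values without a cross.

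Shares within libraries restate the same day 10 counts of Dppa4 and Dppa5a in a form that needs no scaling. Being built from those counts, they are no separate evidence of a difference. These shares were computed after the values had been seen, and they follow Dppa4 relative to Dppa5a across groups rather than comparing the levels of the genes. At day 0, Dppa4 made up 3% of the summed Dppa4 and Dppa5a counts in WT, 3.36% in Quaking KO and 3.01% in Sam68 KO. Single day 0 libraries ranged from 2.43% to 4.03%. In WT embryoid bodies the share was 3.88% (4 of 103 counts, 95% exact binomial interval 1.07% to 9.65%), within the day 0 range.

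In Quaking KO embryoid bodies the Dppa4 share was 36.1% (13 of 36 counts, 95% exact binomial interval 20.8% to 53.8%), from 27.3% in replicate 2 and 50% in replicate 3. Replicate 1 had no count of either gene. In Sam68 KO embryoid bodies it was 0 of 81 counts, with a 95% exact binomial limit of 4.45% (3 counts would be 3.7%), above the share in every day 0 library. The Quaking KO interval lies above the day 0 libraries and the interval of WT embryoid bodies, but it covers counting error only and rests on 2 libraries. The share was not tested over libraries. The change over days in Quaking KO minus that in WT, which tests each gene's own level and not the share, was 1.63 for Dppa4 (SE 0.79, edgeR adjusted p = 0.226) and -2.04 for Dppa5a (SE 0.61, edgeR adjusted p = 0.0546), and neither passed.

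**Figure D5:**
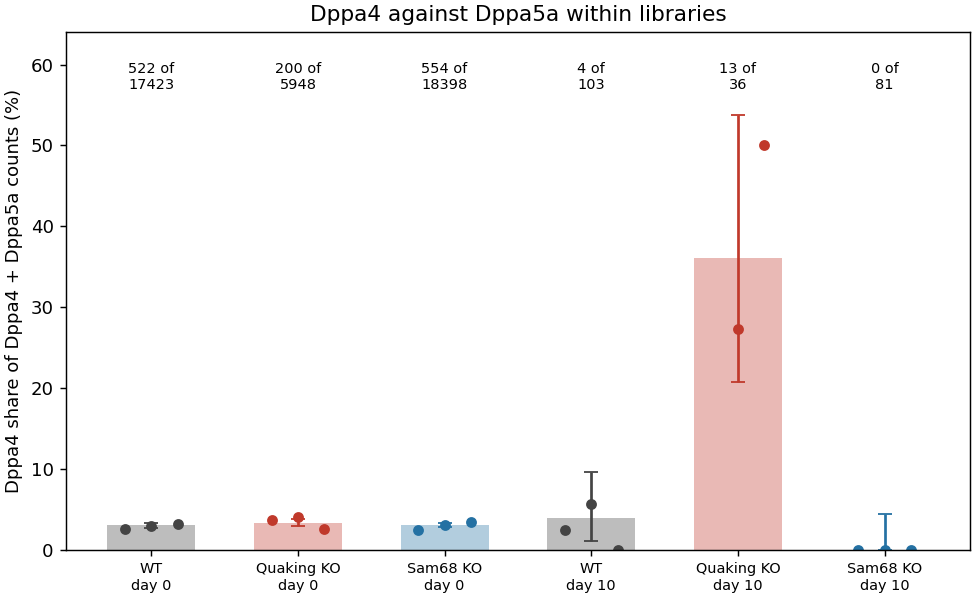
Share of Dppa4 among the summed Dppa4 and Dppa5a counts (%), by group; bars are shares of summed counts with 95% exact binomial intervals, points are libraries with any count of either gene, and the numbers above give the counts. Quaking KO day 10 stands at 36.1% and every day 0 group between 3% and 3.36%.

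The Quaking KO by day interaction gave 0 of 3 genes called by edgeR (1 at an unadjusted p below 0.05, Dppa5a, and 1 by DESeq2, also Dppa5a, with adjusted p = 0.00093), where 8.88% of all genes were called. For Dppa5a edgeR called it with no filter on low counts (adjusted p = 4.11e-06), in the fit of only the 4 groups compared (0.0375), without the 3 dominated libraries (0.0217), and after leaving out either WT day 10 replicate 1 (0.0203) or Quaking KO day 10 replicate 2 (0.0214). The Sam68 KO by day interaction gave 0 of 3 (1 unadjusted, Dppa4, and 0 by DESeq2), where 0.431% of all genes were called. Its Dppa5a value was -0.9 (SE 0.55, edgeR adjusted p = 0.699).

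In order of mean level, each of Dppa2, Dppa4 and Dppa5a had its 3 day 0 groups above its 3 day 10 groups with no overlap between the days. This separation is a description only, since Dppa2 and Dppa4 could pass the filter on low counts only through day 0. The share of all genes tested that separate in this way was not computed. Among the day 0 groups and among the day 10 groups, no neighbours in that order were separated by their ranges for these genes. For Dppa3 the only neighbours with separate ranges were WT and Sam68 KO at day 0, at 1.4 against 1.39 CPM after TMM. Per total count these ranges overlapped.

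Likeness over all 18 libraries takes in the difference between the 2 days. There the feature whose log2(CPM + 1) was most like Dppa4 among 8897 was ENSMUSG00000032348.6 (Pearson r = 0.99). Its mean was 637 CPM at day 0 and 93.3 CPM at day 10. For Dppa5a the feature most like it was ENSMUSG00000022241.5 (r = 0.991), with 383 CPM at day 0 and 123 CPM at day 10. The reference tables used here do not pair these identifiers with names. Within the 9 day 0 libraries the highest r was 0.953 for Dppa4, 0.934 for Dppa5a, 0.918 for Dppa2 and 0.939 for Dppa3, each with another feature. These values are descriptions of likeness over few libraries that share mixes and depth.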

How the data were processed

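The submitters' processing notes name STAR 2.5.3a, Bowtie2 and bcl2fastq 2.17.1.14 with the builds mm10 and GRCm38. The counting program, annotation release and strand setting were not given in the sources used here. The authors deposited 1 file of raw counts per gene for each of the 18 libraries. Per the labels' protocols, footprints were size-selected at 28 to 32 nt.

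Groups and replicate numbers came from the titles and mixes from the descriptions. The main test was edgeR 4.0.16 (R 4.3.3, robust quasi-likelihood fit, TMM, default filter by group), which kept 13701 of 33167 genes with any count. Alternatives were other scalings, no filter, DESeq2 1.42.0, fits of only the groups compared, a replicate block, the mix as a block, thinning and leaving out libraries. Counting intervals and floors (3 counts) cover counting error only, since reads are not independent molecules. The series calls the triplicates biological without naming separate cultures, so p-values measure the spread between these libraries. All replicate pairs differed by more than sampling noise (smallest chi-square per df 4.8).

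The genes, lists and comparisons were chosen with earlier results of these data known. The rule for named genes was all 4 Dppa genes and, for each, the features most like it by Pearson r with a mean of at least 10 CPM; at most 2 identifiers are printed, since 0 could be matched to names. The lists of pluripotency, cleavage-stage, germline, methylation and cell type genes fixed by symbol, the levels per codon and the promoter motif search were therefore not run. RefSeq's promoter table matched 0 of the 4 genes and its gene table all 4.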

Additional observations from a re-analysis of the deposited data

How the results depend on the processing

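Depth limits the day 10 values: 4 or fewer counts stood behind Dppa2, Dppa3 and, in WT, Dppa4. Thinned, Dppa2 was not tested over days or between lines, which leaves 2 genes called over days in each line. The falls of Dppa2, Dppa4 and Dppa5a over days kept direction and call in all 3 lines in the other fits that tested them, except that Dppa2 missed the threshold with the library mix as a block (log2 fold change -5.66, adjusted p = 0.0614, the same value for each line because that model has 1 day effect). That model also has 1 effect per line for both days, so its other values differ by construction. The fall was then -11.53 for Dppa4 and -4.91 for Dppa5a in every line, and Dppa4 in Quaking KO against WT was 0.39 at day 10. The others were Dppa4 -5.51 in Sam68 KO against WT and -5.91 against Quaking KO at either day, and, set against day 10, Dppa5a 0.16 in Quaking KO and 1.45 in Sam68 KO and Dppa2 -0.28 in Sam68 KO, each against WT. It called 1 gene for Sam68 KO against WT on either day and against Quaking KO at day 0, and 0 for Quaking KO against WT at day 10.

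For Quaking KO against WT at day 10, Dppa4 was 2.09 with RLE and 2.07 with upper quartile scaling, both called, which makes 2 genes called. Dppa5a was -2.07 in the fit of only the groups compared, -1.62 on thinning and -1.52 with total counts only, a setting chosen after seeing the data; none was called, which leaves 0. For Sam68 KO against Quaking KO at day 10, Dppa5a was called with no filter (1.24), DESeq2 (1.23) and without the 3 dominated libraries (1.7), 2 genes called each, and Dppa4 was -3.79 and not called on thinning, which leaves 0. The Quaking KO by day interaction of Dppa5a was called with no filter (-2.07), DESeq2 (-2.04), only the groups compared (-2.07) and without the dominated libraries (-1.79), 1 gene called each.

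Uncalled values changed sign as follows. With DESeq2, Dppa2 was -0.19 in Sam68 KO against WT at day 10 and -0.01 in the Quaking KO interaction; with total counts only, the former was -0.16. On thinning, Dppa5a was -0.12 in Sam68 KO against Quaking KO at day 0, 0.28 in Sam68 KO against WT at day 10 and 0.04 in the Sam68 KO interaction. Without the dominated libraries, Dppa5a was 0.03 in Sam68 KO against WT and Dppa2 0.1 in Sam68 KO against Quaking KO, both at day 10. The cause was not tested.

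Leaving out single libraries moved Dppa2 from -0.11 to 0.2 (Quaking KO against WT, day 0), from -2.11 to 2.4 (the same, day 10), from -2.04 to 2.09 (Sam68 KO against WT, day 10), from -2.38 to 2.14 (between knockouts, day 10), from -2.14 to 2.36 (Quaking KO interaction) and from -1.75 to 2.37 (Sam68 KO interaction). Dppa4 moved from -0.28 to 0.17 between knockouts at day 0 and from 1.27 to 3.19 for Quaking KO against WT at day 10. Dppa5a moved from -2.68 to -1.61 for Quaking KO against WT at day 10, from 0.6 to 2.1 between knockouts at day 10 and from -2.83 to -1.76 in the Quaking KO interaction. Among the falls, Dppa2 was -7.78 without WT day 10 replicate 1 and -5.07 without replicate 2, -7.85 without Quaking KO day 10 replicate 2 and -4.72 without replicate 3, and -7.47 without Sam68 KO day 10 replicate 1; where the only day 10 count was left out, the value depends on the prior count. Dppa4 was -5.03 without WT day 10 replicate 1 and -6.85 without replicate 2. Dppa5a was -8.94 without Quaking KO day 10 replicate 2 and -7.74 without Sam68 KO day 10 replicate 1. All of these kept their call. Genes called ranged from 0 to 2, from 1 to 2 and from 0 to 1 for Quaking KO against WT at day 10, between knockouts at day 10 and in the Quaking KO interaction.

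Same-numbered replicates did not deviate together in every pair of any comparison (r from -0.18 to 0.44), so the numbers were not taken as pairs. With a replicate block no Dppa gene changed its call; for Quaking KO against WT at day 10, Dppa5a was then -1.85 (adjusted p = 0.0341). On thinning, Dppa4 in Sam68 KO against WT at day 10 has no value, since no counts were left in either group.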
